A study of Saccharomyces cerevisiae with 6 samples.

Results

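The small-subunit processome, also called the 90S pre-ribosome, is the particle that forms on the nascent ribosomal RNA precursor in the nucleolus and releases the precursor of the 40S ribosomal subunit. The genes described here are 42 Saccharomyces cerevisiae genes for processome subunits and for 40S assembly factors. They were taken by name from a list that was chosen with earlier results of these data known. Each was represented by a probe set that names that gene alone. Where a gene had more than 1, the set with the highest mean signal was used. All 42 were found among 5551 genes tested.

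Both strains, MDC1 and MDC3, are of mating type MATa and carry ura3-52 and lys2-801 together with ade2-101, the trp1∆63 and his3∆200 mutations and leu2∆1. In both, the chromosomal copy of TRA1 is disrupted as tra1::HIS3, and a centromeric (CEN) plasmid with LEU2 carries the only intact copy, wild-type TRA1 in MDC1 and the temperature-sensitive tra1-2ts in MDC3. Cultures in YPD, a rich medium, were moved from 30 to 37 °C, and 1 array per strain was measured at 60, 90 and 120 min. Tra1 is a subunit of the SAGA and NuA4 coactivators and is bound by transcriptional activators. The comparison asks which transcripts differ when its mutant form is the only one present.

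Processome assembly starts when the UTP-A complex binds the leading end of the precursor RNA. The UTP-B complex, the U3 small nucleolar ribonucleoprotein (U3 snoRNP) and the Mpp10 complex follow, and U3 RNA pairs with the precursor to guide its folding and cleavage. In yeast these genes belong to the ribosome biogenesis regulon, which is known to be transcribed in step with growth and lowered by stress, heat included.

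Values are log2 RMA signals (RMA, the robust multi-array average, is a normalized summary per probe set), and differences are tra1-2ts minus wild type. The 3 times of a strain served as its replicates, and whether they came from separate cultures is not stated in the labels. The p-values therefore set the strain difference against the spread between the arrays of a strain. That spread includes change over time, and the rest of it may be only technical. Array medians over all probe sets lay between 6.14 and 6.20, and r across probe sets was 0.992 to 0.996 within a strain and 0.971 to 0.98 between strains. TRA1 mRNA was higher in tra1-2ts, by 0.93 ± 0.14 (SE), and since the probes read both alleles this is no check of the labels. Of the 7 MATa-specific genes all were higher in tra1-2ts (median 1.35), and of 4 MATα-specific genes SAG1 and MF(ALPHA)1 were; STE3, at 3.50 in wild type, lay under the mean of the brightest mouse control probe set, 3.93. Unshifted cultures were not analysed here.

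Transcripts of the processome and of 40S assembly were lower in tra1-2ts. Of the 42 genes, 36 (85.7%) fell (limma, adjusted p under 0.05 after Benjamini-Hochberg correction over all tested genes) and none rose, while 22.3% of all tested genes were lower and 18.3% higher by the same rule. The median difference over the 42 was -0.68, a 1.60-fold lower signal, with single genes between -1.20 and -0.13; over all tested genes the median was 0.00. In 36 of the 42 every wild-type array read above every tra1-2ts array, a separation that 27.7% of all tested genes show. The change per gene was moderate: BUD21, UTP5 and IMP3, 3 of 42 (7.14%), fell at least 2-fold, against 2.92% of all genes.

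In bulk cultures, fewer cells with the transcript and less transcript per cell cannot be told apart, and RMA shows only differences relative to the bulk of the array. Leaving out 1 array at a time left 31 to 36 of the 42 lower, beside 16.4% to 22% of all genes. With both 90 min arrays left out, 22 of 42 passed, beside 11.2% of all genes.

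**Figure D1:**
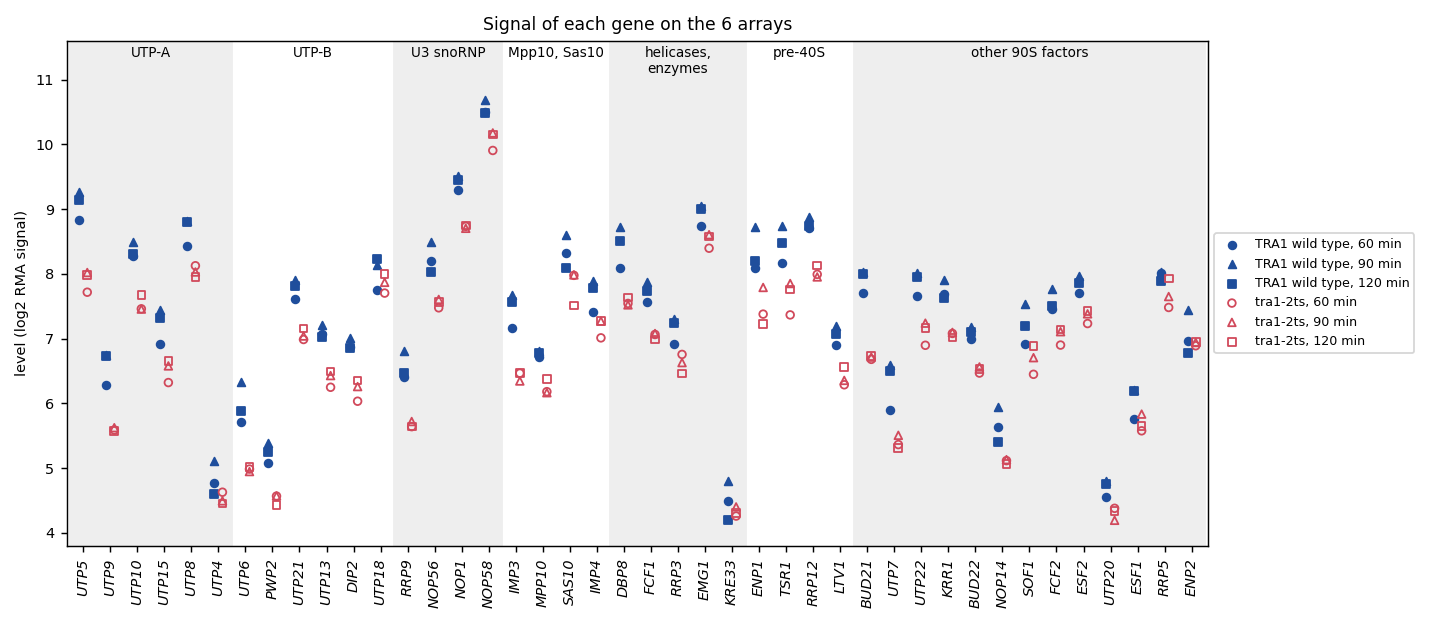
Level of each of the 42 genes (vertical axis, log2 RMA signal) on each of the 6 arrays, with filled blue symbols for wild type and open red symbols for tra1-2ts, and genes grouped by role. In 36 genes the 3 blue symbols all lie above the 3 red ones; levels are not comparable between genes, since each has its own probes.

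The UTP-A genes encode the complex that binds the precursor first, also named t-UTP for its reported link to ribosomal DNA transcription. Of its 6 genes here, 5 fell and none rose, with a median of -0.76. UTP5 read 8.83, 9.26 and 9.14 at 60, 90 and 120 min in wild type and 7.72, 8.02 and 7.98 in tra1-2ts. The lowest wild-type array thus lay 0.81 above the highest mutant array, and the difference was -1.17 ± 0.13 (SE; 2.25-fold lower, limma adjusted p = 0.000363). UTP9 read 6.28, 6.74 and 6.73 against 5.59, 5.62 and 5.58, a difference of -0.99 ± 0.13 (adjusted p = 0.000689). Its mutant arrays spanned almost no range, and the wild-type value at 60 min was the low one of its strain. UTP10, UTP15 and UTP8 fell by 0.82, 0.71 and 0.65. NAN1 (also UTP17), another UTP-A subunit gene, is not among the 42 but was measured with the other 40S factors. It did not pass, at -0.19 ± 0.11 (adjusted p = 0.195), and its strains overlapped; it is named after its values were seen.

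UTP4, whose product is a WD-repeat protein of the same complex, did not pass. It read 4.77, 5.11 and 4.59 in wild type and 4.63, 4.49 and 4.45 in tra1-2ts, so the groups overlapped, with a difference of -0.30 ± 0.13 (adjusted p = 0.107). The wild-type 120 min array lay below the mutant 60 min array. Without that wild-type array the adjusted p of UTP4 was 0.0369. The signal of UTP4 was low, with a mean over the arrays under the lower quartile of all tested genes, 5.05.

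UTP-B is a complex of WD-repeat proteins and the repeat protein Utp6 that joins after UTP-A. Of its 6 genes 5 fell and none rose; the median was -0.71. UTP6 differed most: it read 5.71, 6.33 and 5.88 in wild type and 4.98, 4.95 and 5.02 in tra1-2ts (-0.99 ± 0.15, 1.99-fold lower, adjusted p = 0.00121). The wild-type 90 min array stood highest, and the mutant arrays had an SD of 0.037. PWP2, the next in size, read 5.07, 5.38 and 5.24 against 4.57, 4.57 and 4.43, a difference of -0.71 ± 0.10 (adjusted p = 0.0011). Its mean over the arrays also lay under the lower quartile of all tested genes, 5.05. PWP2, UTP21, UTP13 and DIP2 were nearly alike in the size of their fall, at -0.71, -0.71, -0.71 and -0.70.

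UTP18 was the UTP-B gene that did not pass; in yeast its product recruits the exosome helicase Mtr4. It read 7.75, 8.13 and 8.23 in wild type and 7.70, 7.87 and 7.99 in tra1-2ts, a difference of -0.18 ± 0.14 (adjusted p = 0.325). The strains overlapped, and both were highest at 120 min.

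All 4 genes for proteins of the U3 snoRNP fell, with a median of -0.70. RRP9 encodes the WD-repeat protein that is particular to U3 among the box C/D particles. It read 6.40, 6.81 and 6.46 in wild type and 5.64, 5.72 and 5.64 in tra1-2ts, a difference of -0.89 ± 0.12 (1.86-fold lower, adjusted p = 0.00069). NOP56, a scaffold protein of all box C/D particles, read 8.20, 8.49 and 8.04 against 7.47, 7.60 and 7.56 (-0.70 ± 0.12, adjusted p = 0.0025). NOP1, which encodes the RNA methyltransferase known in humans as fibrillarin, fell by 0.69 ± 0.09. The strains did not overlap in any of these genes.

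NOP58, the partner of NOP56, fell least of the 4. It read 10.49, 10.68 and 10.48 in wild type and 9.91, 10.18 and 10.15 in tra1-2ts, a difference of -0.47 ± 0.11 (adjusted p = 0.00827). It is the one gene of the 42 with a second probe set. That dimmer set averaged 4.58 and 4.40 in wild type and mutant and did not pass (-0.18, adjusted p = 0.21 with the dimmest set per gene).

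The U3 RNA itself comes from SNR17A and SNR17B, of which SNR17B was not analysed here. SNR17A read 6.37, 6.35 and 6.30 in wild type and 6.54, 6.74 and 6.67 in tra1-2ts. It was higher in the mutant on all 3 arrays, by 0.31 ± 0.09 (adjusted p = 0.0237), the opposite direction to the 4 protein genes. By the same test 1014 of all 5551 tested genes were higher and 1237 lower. Of the 5381 protein-coding ones 893 were higher and 1234 lower. Among genes not typed as protein-coding most calls were thus higher, so a rise is not particular to U3. The labelling kit primes on poly(A) tails, which mature U3 RNA lacks, and which form of the RNA the probe set reads was not tested.

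Imp3 and Imp4 bind U3 and help it pair with the precursor, Mpp10 holds them in 1 complex, and Sas10 joins it. All 4 genes fell, with a median of -0.52. IMP3 read 7.16, 7.67 and 7.57 in wild type and 6.47, 6.34 and 6.47 in tra1-2ts, a difference of -1.04 ± 0.13 (2.06-fold lower, adjusted p = 0.000621). MPP10 read 6.72, 6.81 and 6.77 against 6.18, 6.16 and 6.38 (-0.53 ± 0.09, adjusted p = 0.00248). IMP4 had the smallest difference, with 7.41, 7.88 and 7.78 against 7.01, 7.27 and 7.27 (-0.51 ± 0.14, adjusted p = 0.0197). The differences of the 4 genes ran from -1.04 to -0.51 and were not tested against each other.

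The calls of IMP4 and SAS10 were lost when certain single arrays were left out, and the cause was not tested. For IMP4 the adjusted p was 0.0672, 0.0564 and 0.0647 when wild type at 90 min, wild type at 120 min or tra1-2ts at 60 min was left out. For SAS10, at -0.52 ± 0.17, it ran from 0.0514 to 0.113 without the wild-type 60 or 90 min or the tra1-2ts 90 or 120 min array.

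Of 5 genes for helicases and other enzymes, 4 fell and none rose, with a median of -0.54. DBP8, a DEAD-box RNA helicase, read 8.09, 8.72 and 8.50 in wild type and 7.54, 7.52 and 7.64 in tra1-2ts, a difference of -0.88 ± 0.15 (1.83-fold lower, adjusted p = 0.0022). FCF1, a PIN-domain protein known as the nuclease for early cleavages of the precursor, read 7.56, 7.87 and 7.73 against 7.06, 7.08 and 6.99 (-0.68 ± 0.10, adjusted p = 0.0012). The wild-type values of both were lowest at 60 min and highest at 90 min, and the mutant values stayed close together. RRP3, another DEAD-box helicase, fell by 0.54 ± 0.13, and EMG1, a methyltransferase for 18S rRNA, by 0.40 ± 0.11.

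The EMG1 call ended without the wild-type 90 min (adjusted p = 0.0698), the wild-type 120 min (0.0571) or the tra1-2ts 60 min array (0.0666). KRE33, an RNA cytidine acetyltransferase, did not pass. It read 4.49, 4.79 and 4.19 in wild type and 4.26, 4.40 and 4.31 in tra1-2ts, a difference of -0.17 ± 0.14 (adjusted p = 0.376). The strains overlapped, and the signal was near that of the brightest mouse control probe sets, which reached 4.22 on single arrays.

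The 4 genes of later pre-40S steps all fell, with a median of -0.77. Enp1 and Ltv1 travel with the particle towards export, Rrp12 serves export, and Tsr1 is a GTPase-like protein of cytoplasmic maturation. ENP1 read 8.09, 8.72 and 8.19 in wild type and 7.38, 7.79 and 7.22 in tra1-2ts, a difference of -0.87 ± 0.19 (1.83-fold lower, adjusted p = 0.00729). TSR1 read 8.17, 8.74 and 8.47 against 7.37, 7.85 and 7.76 (-0.80 ± 0.17, adjusted p = 0.00612). In both genes the 90 min array was the highest of its strain, also in the mutant. RRP12 fell by 0.75 ± 0.09, and LTV1, the smallest of the 4, from 6.89, 7.20 and 7.06 to 6.29, 6.35 and 6.56 (-0.65 ± 0.11, adjusted p = 0.0024).

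Among 13 other 90S factors 10 fell, none rose, and the median was -0.54. BUD21, also named UTP16, had the largest difference of all 42 genes. It read 7.71, 8.03 and 7.99 in wild type and 6.68, 6.71 and 6.73 in tra1-2ts, a difference of -1.20 ± 0.11 (2.30-fold lower, adjusted p = 0.000138). The 3 mutant arrays had an SD of 0.028, and a gap of 0.98 parted them from wild type. UTP7, a WD-repeat protein gene, read 5.90, 6.59 and 6.49 against 5.36, 5.51 and 5.31 (-0.94 ± 0.17, adjusted p = 0.00297). UTP22 of the UTP-C complex fell by 0.77, KRR1, a KH-domain protein gene, by 0.68, BUD22 by 0.58 and NOP14 by 0.55.

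The falls of SOF1, FCF2, ESF2 and UTP20 were smaller, at 0.54, 0.52, 0.49 and 0.40. Esf2 is known as an activator of the Dbp8 helicase. SOF1 lay nearest to overlap, with a gap of 0.041 between the strains. Its call ended without any array but the wild-type 60 min or the tra1-2ts 120 min one (adjusted p from 0.0625 to 0.1). That of UTP20 ended without the wild-type 90 min (0.0506) or the tra1-2ts 90 min array (0.0683). UTP20 read 4.38, 4.19 and 4.34 in tra1-2ts, near the mouse control maximum of 4.22 and under it at 90 min.

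ESF1, RRP5 and ENP2 did not pass. ESF1 read 5.75, 6.21 and 6.19 in wild type and 5.57, 5.83 and 5.65 in tra1-2ts (-0.36 ± 0.14, adjusted p = 0.0649). With time as a block pairing the strains, ESF1 passed (adjusted p = 0.0222); both strains read lowest at 60 min in this gene. RRP5, whose product serves the processing of both subunits' rRNA, read 8.01, 8.04 and 7.90 against 7.48, 7.65 and 7.93 (-0.29 ± 0.12, adjusted p = 0.0868). Its mutant 120 min array lay among the wild-type values. Without that array RRP5 passed (adjusted p = 0.0227), and without the wild-type 60 min array ESF1 did (0.00815).

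ENP2 had the smallest difference of the 42. It read 6.96, 7.43 and 6.78 in wild type and 6.89, 6.94 and 6.95 in tra1-2ts (-0.13 ± 0.16, adjusted p = 0.529). The wild-type 90 min array stood well apart above the mutant arrays. Without that array the difference of ENP2 was 0.057 in the opposite direction (adjusted p = 0.702).

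**Figure D2:**
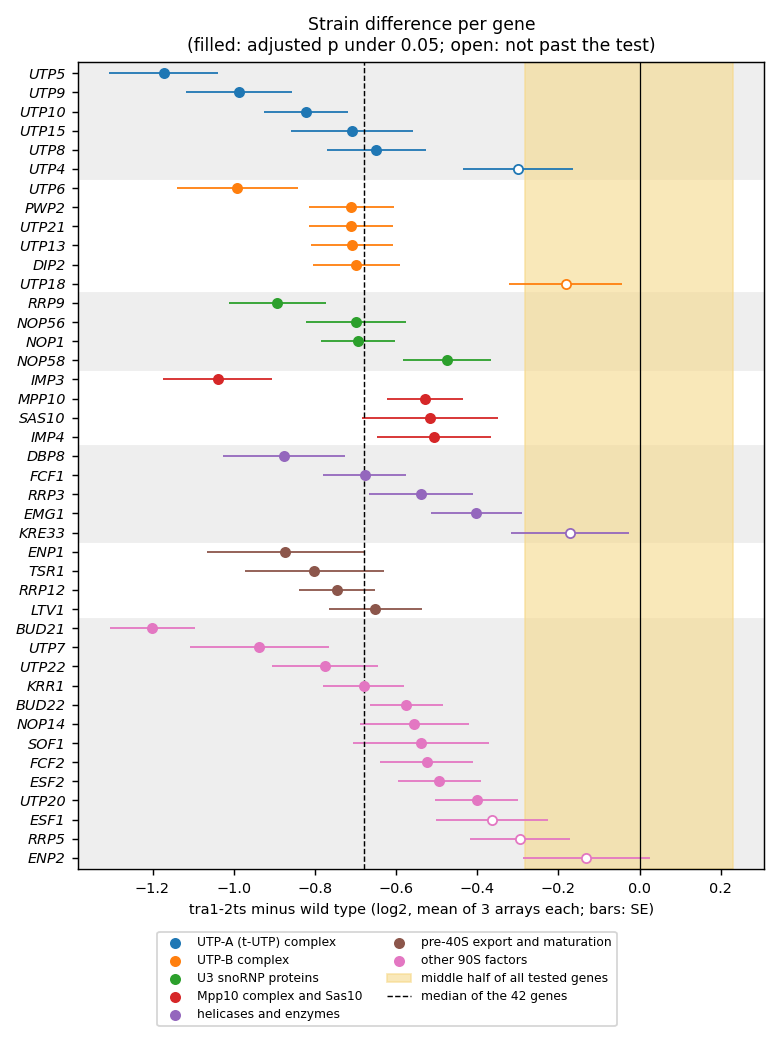
Strain difference of each gene (horizontal axis, log2, tra1-2ts minus wild type, means of 3 arrays each, bars are limma's SE), with filled points for adjusted p under 0.05 and open points for the 6 genes that did not pass. The dashed line is the median of the 42 genes at -0.68, and the yellow band runs from the lower to the upper quartile of all tested genes, -0.28 to 0.23.

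Over time the wild-type values were highest at 90 min. The wild-type 90 min array was the highest of its strain in 41 of the 42 genes, against 36.4% of all tested genes, UTP18 being the exception. All 42 read higher at 90 than at 60 min in wild type, with a median step of 0.32, where 54.2% of all tested genes read higher. At 120 min 41 of 42 read lower than at 90 min, with a median step of -0.14, as did 56.1% of all genes. In tra1-2ts the median step was 0.07 from 60 to 90 min, upward in 31 of 42 genes and in 49.4% of all genes. It was -0.011 from 90 to 120 min, downward in 21 of 42 and in 55.6% of all. The mutant 90 min array was the highest of its strain in 18 of 42 genes (28.3% of all) and the 120 min array in 20 (32.3% of all). With 1 array per point these steps have no test, and a property of the wild-type 90 min array cannot be told apart from its time. Other ribosome assembly genes moved with it: that array was the highest wild-type one in 36 of 45 other 40S factors and in 62 of 77 genes of 60S assembly.

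**Figure D3:**
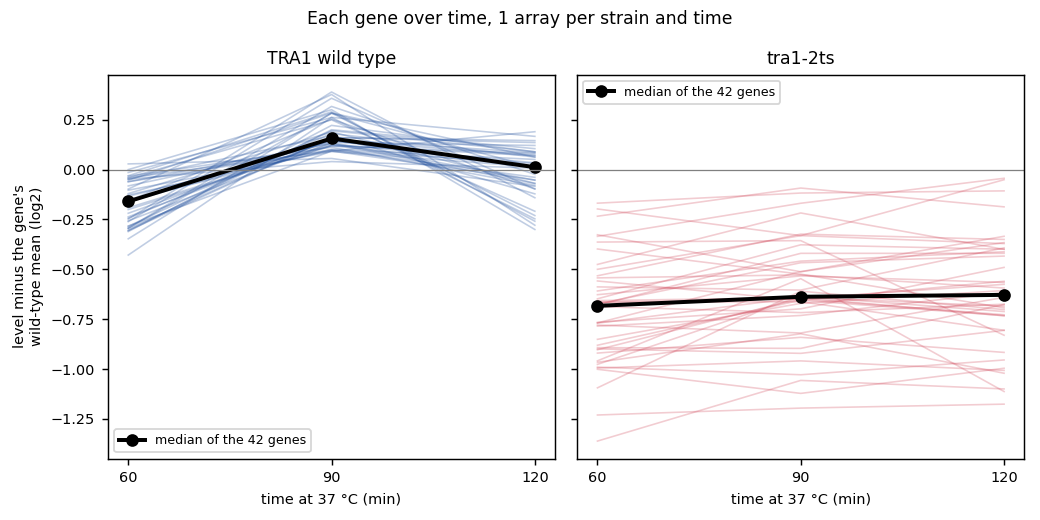
Level of each gene minus its own wild-type mean (vertical axis, log2) against minutes at 37 °C, 1 thin line per gene, wild type on the left and tra1-2ts on the right, with the median of the 42 genes in black. Wild-type lines rise to 90 min and mostly come down by 120 min, with a median step of 0.32 upward, while the mutant median moves by 0.07 over the same interval.

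The strain difference was widest at 90 min in most genes. This goes with the wild-type 90 min array, the highest of its strain in 41 of 42 genes. A property of that array cannot be told apart from its time. The median difference was -0.55 at 60 min, -0.80 at 90 min and -0.59 at 120 min, and the 90 min difference was the most negative of the 3 in 30 of 42 genes, against 33.2% of all tested genes. All 42 were lower in the mutant at 60 and at 90 min, where 49.9% and 49.7% of all tested genes were, and 39 were at 120 min (51.2%). Lower at all 3 times were 39 of 42, against 34.8% of all genes. At least 2-fold lower at 60 min were BUD21 and UTP5 (2 of 42, against 2.63% of all genes). At 90 min 9 were (4.36% of all), with UTP6 at -1.39 and IMP3 at -1.32, and at 120 min 5 were (3.73% of all), BUD21, UTP5, UTP9, UTP7 and IMP3.

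The course of the difference varied between genes, and the examples were chosen after their values were seen. No gene passed the test for a slope difference between the strains, given below. UTP8 differed by -0.30 at 60 min and by -0.85 at 120 min, and RRP3 by -0.16 and -0.78. DIP2 went the other way, from -0.84 to -0.51, and so did RRP5, from -0.53 to 0.034. UTP22 had nearly the same difference at all 3 times, at -0.76, -0.78 and -0.78.

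**Figure D4:**
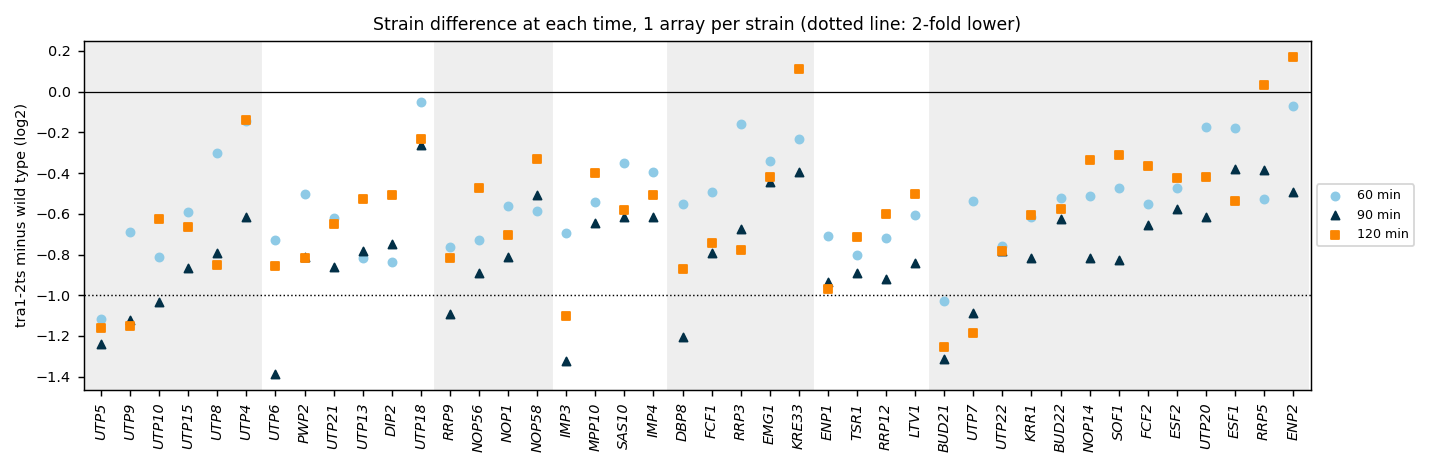
Strain difference of each gene (vertical axis, log2, tra1-2ts minus wild type) at 60, 90 and 120 min, each point 1 array per strain. Dark triangles for 90 min are lowest in 30 of 42 genes, against 33.2% of all tested genes, and only KRE33, RRP5 and ENP2 lie above 0 at any time, at 120 min.

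No gene of the 42 passed a test for change over time. A linear slope shared by both strains passed in 0 of 42 at an adjusted p under 0.05 (limma). By that rule 0.0721% of all genes rose and 0.252% fell. Of the 42, 3 had an unadjusted p under 0.05, UTP18, UTP15 and IMP4, all upward. Of all 5551 tested genes 396 had such a p upward and 501 downward, so the 3 are no more than the background share. UTP18 had the smallest p, with a slope of 0.38 ± 0.11 per 60 min (adjusted p = 0.147). A straight line does not describe a peak at 90 min. The difference between the slopes of the strains passed in 0 of 42 and in 0% of all tested genes. It had an unadjusted p under 0.05 in RRP5 (0.56 ± 0.20 per 60 min), RRP3 (-0.62 ± 0.24) and UTP8 (-0.55 ± 0.23), each with an adjusted p of 0.67 or more. The unadjusted p was also under 0.05 in 392 of the 5551 tested genes, about the same share. This last fit leaves 2 residual degrees of freedom, and on simulated data it recovered 7% of slope differences of 1.

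Other genes of the pathway, from lists chosen with earlier results known, were lower too. Of 45 other 40S factors 27 fell and SQS1 rose, with a median of -0.53. PNO1, a KH-domain protein gene of the pre-40S particle, fell by 1.39 ± 0.12, NOC4, whose product partners Nop14, by 1.27 ± 0.11, the helicase gene ROK1 by 1.03 ± 0.10 and the kinase gene RIO1 by 0.90 ± 0.09. SQS1, an activator of the Prp43 helicase, differed by 0.35 ± 0.11. Both its strain means, 3.11 and 3.46, lay under the mean of the brightest mouse control probe set, 3.93. Of 77 genes of 60S assembly 63 fell, none rose, and the median was -0.65. BUD20, a 60S export factor, fell by 1.70 ± 0.09, and the helicase gene HAS1 by 1.29 ± 0.08. NOG2 and NOG1, which encode GTPases of the pre-60S particle, fell by 1.19 ± 0.09 and 1.15 ± 0.09. Fallen at least 2-fold were 6 of the 45 and 17 of the 77, beside the 3 of 42; these shares were not tested against each other.

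**Figure D5:**
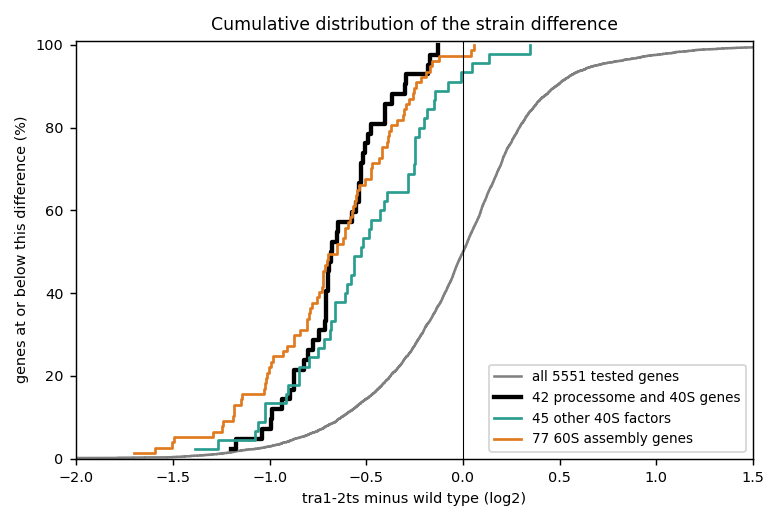
Cumulative share of genes (vertical axis, percent) against the strain difference (horizontal axis, log2, tra1-2ts minus wild type; genes beyond -2 or 1.5 are outside the axis) for all 5551 tested genes, the 42 genes described here, 45 other 40S factors and 77 genes of 60S assembly. The curves of the 3 ribosome assembly lists lie left of the curve of all genes, with medians of -0.68, -0.53 and -0.65 against 0.00.

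Genes for known regulators of the ribosome biogenesis regulon changed in both directions. Of 15 such genes 4 rose and 2 fell, 6 in all, and 40.6% of all tested genes changed in one direction or the other, so the count is near the background. SIT4, a phosphatase gene of the TORC1 pathway, fell by 0.90 ± 0.10, and SCH9, a kinase gene of that pathway, by 0.49 ± 0.10, while TCO89, a TORC1 subunit gene, rose by 0.61 ± 0.08. SIN3 of the Rpd3 deacetylase complex rose by 0.51 ± 0.13. SFP1, an activator of the regulon, rose by 0.41 ± 0.10, and STB3, a repressor that binds its RRPE promoter element, by 0.31 ± 0.10; both are named after their values were seen. DOT6 and TOD6, repressors that bind its PAC element, did not pass, at -0.20 ± 0.13 and -0.24 ± 0.10 (adjusted p = 0.262 and 0.0904; both named after their values were seen).

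Some of the 42 genes have a ribosome assembly gene as an adjacent coding gene, in the gene order of RefSeq assembly R64. In the 3 lists there were 5 such pairs, and in each a gene of the 42 lay beside a gene of 60S assembly. RRP3 and SSF1, which their locus tags place on opposite strands and pointing apart, differed by -0.54 and -1.03. The tandem pairs were DBP8 and NMD3, at -0.88 and -0.87, UTP9 and RIX1, at -0.99 and -1.24, UTP13 and RSA3, at -0.71 and -0.48, and ESF2 and NOG2, at -0.49 and -1.19. All 10 genes fell, where 85.7% of the 42 and 81.8% of the 77 genes of 60S assembly did. Of 74 other coding neighbours, 27 fell (36.5%) and 8 rose (10.8%), with a median of -0.18, beside 22.3% and 18.3% of all tested genes. These 74 lie outside the 3 lists but are not free of ribosome genes. The ribosomal protein genes RPL37A, RPS29B and RPS10B are among those that fell. An effect of position was not tested.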

How the data were processed

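The deposited series matrix holds log2 signals that the authors made with RMA (R package oligo), per the submitters' processing notes. A 3' IVT kit labelled the total RNA, per the labels' protocols. The genome build was not given in the sources used here. Of 6776 probe sets, 5668 name 1 gene, 183 several and 925 none in the platform annotation; all 5668 matched the RefSeq R64 gene table by gene ID, which gave symbols and gene order. Probe sets naming 1 gene, brightest per gene, left 5551 genes, with no filter on low values. Columns of other samples numbered 0.

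Tests used limma 3.58.1 in R 4.3.3, two-sided, and all tested genes entered the Benjamini-Hochberg adjustment (threshold 0.05). The strain test fitted genotype alone over 6 arrays; 2 more fits took a shared slope over minutes and the difference between strain slopes. Simulated data over 5551 genes took the arrays' gene means, with the spread of each gene drawn towards the median spread. In them 100 genes differed by 1 and 100 by 0.5, and the strain test recovered 100% and 70% of these. In the real data 40.6% of genes passed, a far larger share than was changed in the simulation, so these rates may not carry over. The members and lists were chosen with earlier results of these data known. Full array values are given for the 2 largest and the smallest difference of each role group and for genes that did not pass; from other lists up to 4 genes with the smallest p and those against the list median. DBP4, PFA1 and GNO1 of the list are HCA4, SQS1 and PXR1 here.

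Replicate numbers in the titles stand for the times and so pair the strains by time. Deviations from strain means correlated over all genes with r = 0.31, 0.0656 and 0.33 at 60, 90 and 120 min. The fit with this block was an alternative, beside other scalings, filters, moderation, probe set choices and left-out arrays. The number of arrays limits the precision.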

Additional observations from a re-analysis of the deposited data

Results flagged for a closer look

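In 3 genes the sign of the strain difference (tra1-2ts minus wild type, log2) was not the same at all times. RRP5 differed by -0.53 at 60 min, -0.39 at 90 min and 0.034 at 120 min. KRE33 differed by -0.23, -0.39 and 0.11 at the same times, and ENP2 by -0.071, -0.49 and 0.17. Each value rests on 1 array per strain, and the difference between single times was not tested. The fit of a slope per strain over all 3 times gave an adjusted p of 0.67 for RRP5, 0.84 for KRE33 and 0.921 for ENP2 (limma). None of the 3 passed the strain test.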

How the results depend on the processing

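The count of 36 lower and 0 higher genes of the 42 stayed within 1.5 times under every setting run but 1. It was 37 with time as a block that pairs the arrays, which added ESF1 and changed no other call among the 42, 36 with quantile normalization or with arrays centred on their medians, 34 of the 38 left when genes with means under the lower quartile were dropped, 35 with the dimmest probe set per gene, 29 at an adjusted p under 0.01, and 31 to 36 with 1 array left out. The exception was 22 of 42 with both 90 min arrays left out. The median ran from -0.72 to -0.59 with 1 array left out. Over all genes the counts of lower and higher were 1237 and 1014, and became 808 and 576 at 0.01 and 621 and 383 without the 90 min arrays; with 1 array left out they ran from 910 to 1222 and from 651 to 992. Both other scalings turned the balance of calls, centring to 1114 lower and 1248 higher and quantile normalization to 1145 and 1170 (52.8% and 50.5% of calls higher, against 45%), without a change of call among the 42. ENP2 reversed, to 0.057 when the wild-type 90 min array was left out and 0.051 when both 90 min arrays were. The time slope passed in 0 of 42 under every alternative. With 1 array left out, the slope difference passed in 0 to 3 of 42: ENP2 when wild type at 60 min was left out, and DBP8, UTP6 and UTP7 when wild type at 120 min was; there 1 residual degree of freedom is left and 1.6% and 3.78% of all genes pass. The cause of these changes was not tested. The 39 genes lower at all 3 times stayed 39 under the other scalings and became 38 with the dimmest probe sets.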

Other observations

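The spread between arrays was wider in wild type than in tra1-2ts for 34 of the 42 genes, with a median SD of 0.21 against 0.10. Over all tested genes the wild-type SD was the wider in 59.7%. Since the arrays of a strain are 3 times, this spread includes change over time.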
